A study of Mus musculus with 9 samples.

Results

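The genes that gate the passage from G1 into S phase were followed in mammary tumors of BRCA-deficient mice treated with Talazoparib. They were the D-type cyclins *Ccnd1*, *Ccnd2* and *Ccnd3*, the kinases *Cdk4* and *Cdk6*, the INK4 inhibitors *Cdkn2a*, *Cdkn2b* and *Cdkn2c*, the inhibitor *Cdkn1b* and the retinoblastoma gene *Rb1*. They were chosen by name and found by Ensembl identifier, and they make up 10 of the 35275 genes in the table of counts. RNA was sequenced from 9 tumors, each from 1 mouse, with 3 tumors in each of 3 groups. All mice were Brca1Co/Co;MMTV-Cre;p53+/-, so the controls carried the same alleles as the treated mice. The MMTV promoter directs Cre to the mammary epithelium, where it deletes the floxed part of *Brca1*, and 1 copy of p53 is lost in every cell. The saline group received saline, the i.v. TLZ group received free Talazoparib, and the NanoTLZ group received Talazoparib in nanoparticles. All of these were given intravenously, so the drug groups differed in formulation and not in route. Both drug groups received 0.33 mg/kg per dose, and tumors were taken after 5 doses at 3 doses a week. Tumors given empty nanoparticles were not part of the RNAseq, and ages of these mice were not given in the sources used here. Talazoparib inhibits the DNA repair enzyme PARP and traps it on DNA.

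D-type cyclins bind CDK4 or CDK6, and the active pair phosphorylates the retinoblastoma protein, which then lets go of the E2F transcription factors that drive S phase genes. INK4 proteins bind CDK4 and CDK6 and keep the D-type cyclins off them, while p27, the product of *Cdkn1b*, blocks CDK2 and also binds the cyclin D kinases. Cyclin D1 is long known as a driver of growth in mammary epithelium, and the *Cdkn2a* locus is a classic tumor suppressor locus.

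The libraries held 17538380 to 21194980 counted reads per tumor. Levels are given as CPM, the reads on a gene scaled to a common library size by the TMM method, and 15821 genes with enough counts were tested in 1 edgeR fit to all 9 tumors. A gene was called at an adjusted p under 0.05 after Benjamini-Hochberg adjustment over all tested genes. The saline 3 tumor stood apart, with a mean Spearman correlation of 0.867 with the other 8 tumors across tested genes, against 0.916 to 0.947 for the rest. All 7 mammary epithelial markers (*Epcam*, *Krt8*, *Krt18*, *Krt19*, *Krt5*, *Krt14*, *Cdh1*) were counted in every tumor, and their sum ranged from 4362 to 8375 CPM in saline, 5154 to 6127 CPM with i.v. TLZ and 3586 to 5236 CPM with NanoTLZ. The sum hides differences between the markers. Against saline, their log2 fold changes ranged from -4.49 to 0.35 with i.v. TLZ and from -6.29 to 0.055 with NanoTLZ. The medians were -0.002 and -0.31, and none of these markers was called. The sum of 8 skeletal muscle markers was 29.8, 189 and 719 CPM in the saline tumors and 3.01 to 31.4 CPM in the treated ones, and only 3 of these markers were above 0 in every tumor. All 8 had a log2 fold change below 0 in both drug groups, with medians of -6.13 with i.v. TLZ and -6.07 with NanoTLZ. For 7 of the 8, every treated tumor lay below every saline tumor, beside 2.66% of all tested genes. In the mean of both treated groups 2 of these muscle markers were called, beside 0.019% of all tested genes. Saline 3 also had the lowest sums of leukocyte and endothelial markers, 138 and 58.6 CPM, against 219 to 681 and 66.4 to 196 CPM elsewhere, in lists of 8 and 5 markers of which 6 and 5 were above 0 in every tumor. The sum of 6 fibroblast markers ranged from 1052 to 1736 CPM in saline, 859 to 5067 CPM with i.v. TLZ and 1427 to 2655 CPM with NanoTLZ, and the sum of 6 adipocyte markers was 5.85 to 32.2 CPM in 8 tumors and 66.5 CPM in NanoTLZ 1. Counts of *Brca1*, 9.46 to 42.7 CPM, are summed over the whole gene and cannot check the deletion of the floxed part. Gene counts do not separate fewer cells of a type from less RNA per cell, and the part that the makeup of the tumors had in the values below was not tested.

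All 10 genes were well counted, with 285 to 13191 reads per gene and tumor, and all passed the filter on low counts. None of the 10 was called in any comparison. The share of all tested genes called was 0.0% for i.v. TLZ against saline, 0.00632% for NanoTLZ against saline, 0.0% for NanoTLZ against i.v. TLZ and 0.019% for the mean of both treated groups against saline, so edgeR called almost nothing in these tumors. The biological coefficient of variation was 49.8%. The INK4 genes *Cdkn2a* and *Cdkn2b* lie side by side on chromosome 4. *Cdkn2a* and *Cdkn2b* had the highest fold changes of the 10 genes in both treated groups, 1.87 and 1.51 on the log2 scale with i.v. TLZ and 1.06 and 1.09 with NanoTLZ. At an unadjusted p under 0.05, edgeR gave 2 of the 10 genes higher after i.v. TLZ (*Cdkn2a* and *Cdkn2b*) and 1 lower after NanoTLZ (*Cdkn1b*), where 4.91% and 5.49% of all tested genes passed in that direction. In the mean of both treated groups the same 3 genes passed, 2 higher and 1 lower, against 4.8% and 8.29% of all tested genes. Without saline 1 or without saline 3 neither *Cdkn2a* nor *Cdkn2b* passed at this level after i.v. TLZ or in the mean, and without i.v. TLZ 2 neither passed after i.v. TLZ. After NanoTLZ and in the mean, none of the 10 genes passed as lower under RLE or upper quartile normalization or in DESeq2 on all 9 tumors. The same held with any single NanoTLZ tumor left out. Without saline 3 *Cdkn1b* did not pass, with an unadjusted edgeR p of 0.271 after NanoTLZ and 0.385 in the mean. Leaving out a saline tumor also added genes at this level. With saline 1 left out, 2 of the 10 passed as lower after NanoTLZ and 3 in the mean, beside 6.5% and 8.51% of all tested genes. With saline 2 left out, 2 passed as lower in the mean, beside 11.3%. With saline 3 left out, *Rb1* passed as lower in both drug groups and in the mean, and *Ccnd2* as higher after NanoTLZ. Between NanoTLZ and i.v. TLZ none of the 10 genes passed even this level, and DESeq2 called none of the 10 in any comparison. The median log2 fold change of the 10 genes was -0.37 after i.v. TLZ and -0.17 after NanoTLZ, beside -0.03 and -0.09 over all tested genes, and without saline 3 it was 0.04 and 0.23.

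**Figure D1:**
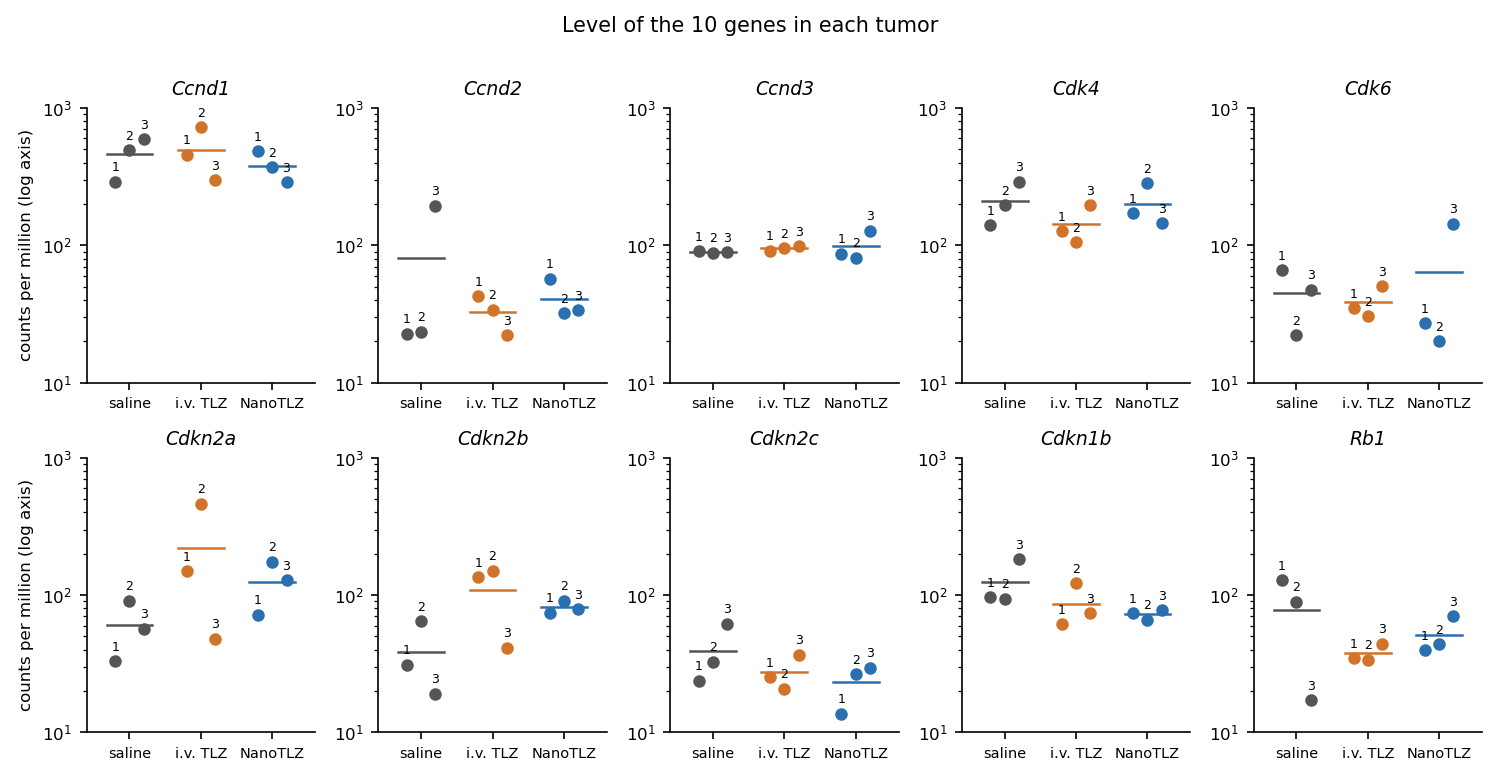
Level of each of the 10 genes in each tumor in CPM on a log axis, with points numbered by tumor within the saline, i.v. TLZ and NanoTLZ groups and a line at each group's mean. *Ccnd3* lay between 81.2 and 128 CPM in all 9 tumors, while *Cdkn2a* ranged from 32.9 to 463 CPM.

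*Ccnd1* (ENSMUSG00000070348, chromosome 7 from 144929931 to 144939925 on the minus strand of mm10) encodes cyclin D1, the cyclin most tied to mammary growth. Its level was 290.2, 492 and 594 CPM in the saline tumors, 457, 721 and 296 CPM in the i.v. TLZ tumors and 483, 369 and 288 CPM in the NanoTLZ tumors. The highest level was in i.v. TLZ 2 and the lowest in NanoTLZ 3, and the 3 groups overlapped. On the log2 scale the fold change was 0.10 ± 0.41 (SE, n = 3 and 3) with i.v. TLZ, with a 95% interval of -0.80 to 1.003, and -0.27 ± 0.41 after NanoTLZ, with an interval of -1.18 to 0.63 (edgeR adjusted p of 0.947 and 0.849). Its sign after i.v. TLZ turned when saline 1 or i.v. TLZ 2 was left out. Exons of *Lto1* on the other strand overlap this gene, and the strand setting of the counting was not given in the sources used here, but *Lto1* held 4993 counts over the 9 tumors against 78786 for *Ccnd1*.

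*Ccnd2* (ENSMUSG00000000184, chromosome 6 from 127125162 to 127152193 on the minus strand) encodes cyclin D2, which mammary epithelium makes in smaller amounts than cyclin D1. The saline tumors had 22.7, 23.4 and 195 CPM, the i.v. TLZ tumors 42.8, 33.8 and 22.1 CPM and the NanoTLZ tumors 56.9, 31.9 and 33.6 CPM. Saline 3 alone held the high level, and the other 8 tumors lay within 22.1 to 56.9 CPM. The fold change hung on that tumor. With all 9 tumors the log2 fold change was -1.29 ± 0.75 with i.v. TLZ and -0.98 ± 0.75 after NanoTLZ (edgeR adjusted p of 0.562 and 0.682), and without saline 3 it was 0.52 and 0.85, with adjusted p of 0.676 and 0.749.

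*Ccnd3* (ENSMUSG00000034165, chromosome 17 from 47505051 to 47599691 on the plus strand) encodes cyclin D3, the most widely made of the D-type cyclins. It was the steadiest of the 10 genes, at 90.5, 88.3 and 88.9 CPM in the saline tumors, 91.0, 94.8 and 98.4 CPM with i.v. TLZ and 86.9, 81.2 and 128 CPM with NanoTLZ. All 3 i.v. TLZ tumors lay above all 3 saline tumors, by little, and NanoTLZ overlapped saline. A gap of this kind, with every i.v. TLZ tumor higher, was found in 5.99% of all tested genes, and *Ccnd3* was the only one of the 10 to show it. The log2 fold changes were 0.09 ± 0.24 and 0.15 ± 0.24, with intervals of -0.46 to 0.63 and -0.40 to 0.69 (edgeR adjusted p of 0.920 and 0.868). The SD of its log2 CPM over the 9 tumors, 0.19, was larger than that of only 1.40% of tested genes. Exons of *Bysl* overlap it on the other strand, with 6708 counts against 16569, so its level carries that uncertainty.

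Per kilobase of exon, *Ccnd1* held most of the D-type cyclin counts in every tumor. Its share was 82.9%, 89.3% and 80.4% in saline, 86.7%, 91.4% and 82.3% with i.v. TLZ, and 86.5%, 86.1% and 77.1% with NanoTLZ. The groups overlapped fully. *Ccnd3* came next with 6.45% to 18.4% and *Ccnd2* last with 2.13% to 5.10%, apart from saline 3, where *Ccnd2* reached 13.2% and passed *Ccnd3* at 6.45%. Summed over the family, the level per kilobase was 116 ± 41.3 (SD, n = 3) CPM per kilobase in saline, 119 ± 45.9 with i.v. TLZ and 96.3 ± 20.1 with NanoTLZ. The differences between these means were smaller than the SD within the saline or the i.v. TLZ group.

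**Figure D2:**
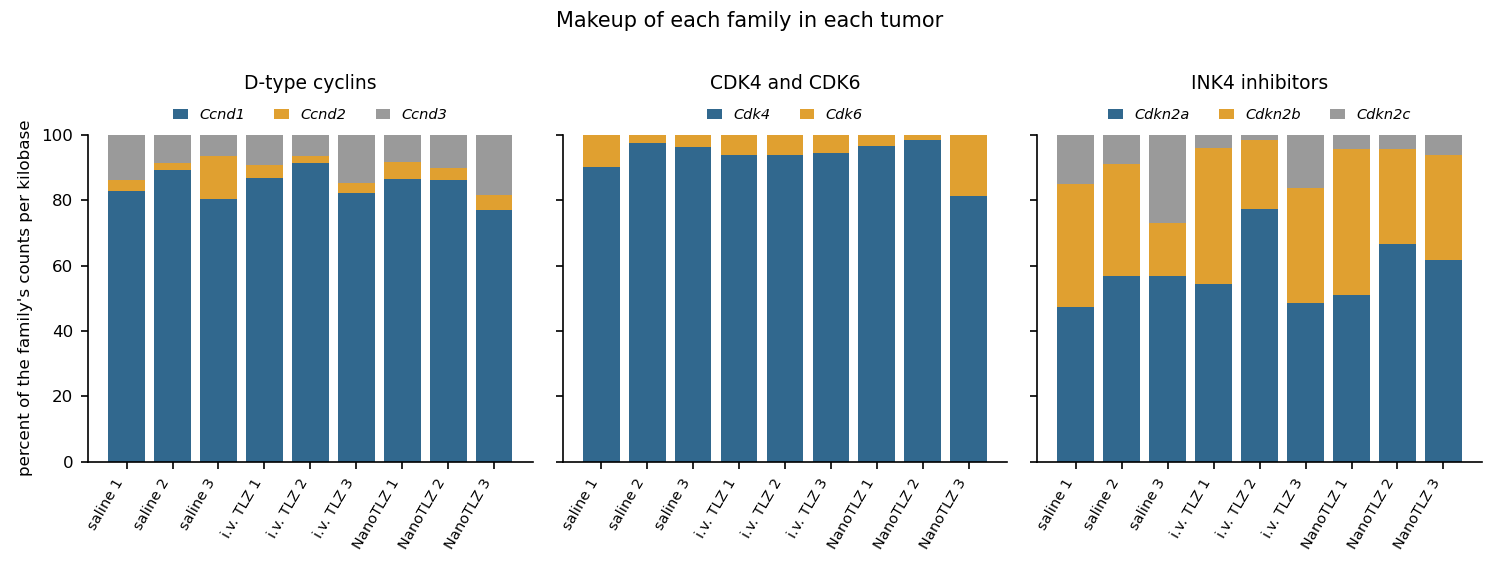
Share in percent of each family's counts per kilobase of exon that each member held, with 1 stacked bar per tumor for the D-type cyclins, CDK4 and CDK6, and the INK4 inhibitors. *Ccnd1* and *Cdk4* led their families in all 9 tumors, *Ccnd2* stood out in saline 3 at 13.2%, *Cdk6* in NanoTLZ 3 at 18.7%, and *Cdkn2c* in saline 3 at 27.02%.

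*Cdk4* (ENSMUSG00000006728, chromosome 10 from 127063534 to 127067920 on the plus strand) encodes the main kinase partner of cyclin D1 in mammary epithelium. Its level was 140.1, 196 and 289 CPM in the saline tumors, 126, 105 and 197 CPM with i.v. TLZ and 172, 284 and 144 CPM with NanoTLZ. Saline 3 and NanoTLZ 2 were the high tumors, i.v. TLZ 2 was the lowest, and all groups overlapped. The fitted log2 fold change was -0.55 ± 0.38 with i.v. TLZ, -0.06 ± 0.38 after NanoTLZ and 0.49 ± 0.38 for NanoTLZ against i.v. TLZ (edgeR adjusted p of 0.621, 0.975 and 0.99994). The value after NanoTLZ, near 0, was positive without saline 3 (0.28), without NanoTLZ 1 or NanoTLZ 3, and under upper quartile normalization (0.02). *Tspan31* overlaps *Cdk4* on the other strand with 9912 counts against 32587.

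*Cdk6* (ENSMUSG00000040274, chromosome 5 from 3341485 to 3531008 on the plus strand) encodes the related kinase that blood cells use widely. The saline tumors had 65.5, 22.2 and 47.6 CPM, the i.v. TLZ tumors 34.8, 30.4 and 50.3 CPM and the NanoTLZ tumors 26.96, 20.03 and 143 CPM. NanoTLZ 3 held the highest *Cdk6* level, and the 3 groups overlapped. The leukocyte marker sum was 681 CPM in that tumor, and 567, 560 and 546 CPM in NanoTLZ 1, i.v. TLZ 1 and saline 2, and its part in the *Cdk6* level was not tested. EdgeR put the log2 fold change at -0.23 ± 0.69 with i.v. TLZ and 0.49 ± 0.69 after NanoTLZ (edgeR adjusted p of 0.927 and 0.835), and without NanoTLZ 3 the latter was -0.90. Per kilobase, *Cdk4* held 90.2% to 98.4% of the counts of the 2 kinases in 8 tumors and 81.3% in NanoTLZ 3.

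*Cdkn2a* (ENSMUSG00000044303, chromosome 4 from 89274471 to 89294653 on the minus strand) has 2 first exons, 1 for p16Ink4a, an inhibitor of CDK4 and CDK6, and 1 for p19Arf, which frees p53 from its inhibitor MDM2. The table holds 1 count for both transcripts, so their levels cannot be told apart. Starts listed by RefSeq for the 2 transcripts lie 12.4 kilobases apart, and the start of *Cdkn2b* lies 16.4 kilobases beyond the upstream one. The 250 bases before each start are shown because the 3 promoters drive the neighbouring genes with the highest fold changes here. They are on the minus strand of GRCm38.p6, written 5′ to 3′ as RefSeq gives them, with an E2F word in capitals.
Cdkn2a, p19Arf start (chr4:89294620-89294869): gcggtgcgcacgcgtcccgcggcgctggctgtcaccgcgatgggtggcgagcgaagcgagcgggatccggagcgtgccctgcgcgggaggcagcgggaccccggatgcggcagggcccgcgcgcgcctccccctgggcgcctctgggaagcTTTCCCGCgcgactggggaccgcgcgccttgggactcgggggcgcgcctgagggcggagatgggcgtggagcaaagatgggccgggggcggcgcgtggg
Cdkn2a, p16Ink4a start (chr4:89282193-89282442): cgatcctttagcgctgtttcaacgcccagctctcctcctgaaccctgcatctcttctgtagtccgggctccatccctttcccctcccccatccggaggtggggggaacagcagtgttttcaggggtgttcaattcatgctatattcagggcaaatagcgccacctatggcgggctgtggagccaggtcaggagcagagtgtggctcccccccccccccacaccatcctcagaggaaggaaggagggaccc
Cdkn2b (chr4:89311033-89311282): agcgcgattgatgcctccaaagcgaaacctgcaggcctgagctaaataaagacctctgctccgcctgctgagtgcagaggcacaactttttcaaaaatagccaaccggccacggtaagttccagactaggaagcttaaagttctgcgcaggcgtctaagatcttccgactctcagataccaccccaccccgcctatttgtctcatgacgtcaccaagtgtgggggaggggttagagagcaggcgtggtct

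E2F sites were searched on both strands as the words TTTCCCGC, TTTCGCGC, TTTGCCGC and TTTGGCGC in the 300 bases from 250 before to 50 after each start. At least 1 of them was present in 2.3% of the 32851 promoters of the RefSeq table. Of the 10 genes, 7 had a promoter there (*Ccnd3*, *Cdk4*, *Cdk6*, *Cdkn2a*, *Cdkn2b*, *Cdkn2c* and *Cdkn1b*), and the single match was TTTCCCGC, 99 bases before the p19Arf start. The GC box GGGCGG, present in 35.7% of promoters, was found in all of these genes except *Cdk6*, on 1 strand or the other. The only TATAAA was in the *Cdk6* promoter and the only TTTGAA in that of *Cdkn2b*, words held by 13.6% and 17.9% of promoters. The E2F match overlapped none of the other words. A match describes the letters and says nothing of whether a factor binds there.

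*Cdkn2a* counts were 32.9, 90.7 and 56.9 CPM in the saline tumors, 149, 463 and 48.0 CPM with i.v. TLZ and 71.7, 175 and 128 CPM with NanoTLZ. I.v. TLZ 2 held by far the highest level, 4 of the 6 treated tumors lay above every saline tumor, and i.v. TLZ 3 and NanoTLZ 1 lay within the saline range. On the log2 scale the fold change was 1.87 ± 0.72 with i.v. TLZ, with an interval of 0.26 to 3.48 and an edgeR p of 0.0269 that became 0.445 after adjustment over all tested genes. After NanoTLZ it was 1.06 ± 0.71, with an interval of -0.52 to 2.63 and an edgeR adjusted p of 0.641. The i.v. TLZ value rested in part on 1 tumor and was 0.71 without i.v. TLZ 2. NanoTLZ minus i.v. TLZ was -0.81 ± 0.70 (-2.38 to 0.75), and 0.35 without i.v. TLZ 2, so the 2 formulations of the drug could not be told apart for this gene. Across the 9 tumors *Cdkn2a* varied most of the 10 genes, with an SD of log2 CPM of 1.15, larger than in 87.6% of tested genes.

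*Cdkn2b* (ENSMUSG00000073802, chromosome 4 from 89306299 to 89311039 on the minus strand) encodes p15Ink4b, an INK4 inhibitor that TGF-beta is known to induce. Saline tumors had 31.1, 64.6 and 19.2 CPM, i.v. TLZ tumors 135, 150.2 and 41.3 CPM and NanoTLZ tumors 74.2, 91.1 and 79.1 CPM. The saline and NanoTLZ groups did not overlap, since every NanoTLZ tumor lay above saline 2, the highest saline tumor. I.v. TLZ 3 fell inside the saline range, and the other i.v. TLZ tumors were the highest of all. Such a gap, with every NanoTLZ tumor higher, was found in 7.82% of all tested genes. The fitted log2 fold change was 1.51 ± 0.53 (0.33 to 2.69) with i.v. TLZ, with an edgeR p of 0.0174 and adjusted p of 0.443, and 1.09 ± 0.52 (-0.08 to 2.26) after NanoTLZ, with 0.0644 and 0.566. For the mean of both treated groups it was 1.30 ± 0.48, or a 2.46-fold level, with an edgeR adjusted p of 0.319. The sign held with any single tumor left out, from 0.99 without saline 3 to 1.90 without saline 2, where the adjusted p was 0.122, the smallest of any of the 10 genes under any alternative. The difference between NanoTLZ and i.v. TLZ was -0.42 ± 0.52 (-1.57 to 0.74).

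*Cdkn2c* (ENSMUSG00000028551, chromosome 4 from 109660876 to 109667189 on the minus strand), on the same chromosome but far from the pair above, encodes p18Ink4c. It had 23.7, 32.6 and 62.0 CPM in the saline tumors, 25.2, 20.8 and 36.8 CPM with i.v. TLZ and 13.7, 26.5 and 29.6 CPM with NanoTLZ. Saline 3 was the highest, NanoTLZ 1 the lowest, and the groups overlapped. The log2 fold change lay below 0 in both treated groups, -0.52 ± 0.43 (-1.48 to 0.45) and -0.76 ± 0.43 (-1.73 to 0.21), with edgeR adjusted p of 0.687 and 0.601. Without saline 3 these values were -0.02 and -0.25. Per kilobase, *Cdkn2a* held 47.4% to 77.3% of the INK4 counts, *Cdkn2b* 16.1% to 44.6% and *Cdkn2c* 1.52% to 27.02%. The *Cdkn2c* share was 14.9%, 8.93% and 27.02% in saline, 4.02%, 1.52% and 16.3% with i.v. TLZ, and 4.27%, 4.39% and 6.21% with NanoTLZ, so that 5 of the 6 treated tumors lay below all saline tumors. The summed INK4 level was 93.6 ± 39.0 (SD, n = 3) CPM per kilobase in saline, 276 ± 217 with i.v. TLZ and 174 ± 52.8 with NanoTLZ.

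*Cdkn1b* (ENSMUSG00000003031, chromosome 6 from 134920401 to 134925513 on the plus strand) encodes p27Kip1, whose protein level is set largely by degradation through SKP2. The saline tumors had 96.8, 94.1 and 182 CPM, the i.v. TLZ tumors 61.6, 122 and 73.7 CPM and the NanoTLZ tumors 73.7, 65.9 and 77.7 CPM. Every NanoTLZ tumor lay below every saline tumor, a pattern found in 8.13% of all tested genes, while i.v. TLZ 2 lay inside the saline range. On the log2 scale the fold change was -0.78 ± 0.35 (-1.56 to -0.002) after NanoTLZ, with an edgeR p of 0.0496 and adjusted p of 0.555, and -0.54 ± 0.35 (-1.31 to 0.24) with i.v. TLZ, with an adjusted p of 0.595. Saline 3 carried much of it, and without that tumor the values were -0.37 and -0.14.

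*Rb1* (ENSMUSG00000022105, chromosome 14 from 73183673 to 73325822 on the minus strand) encodes the retinoblastoma protein, the substrate of the cyclin D kinases and the brake on E2F. The saline tumors ranged widely, at 129, 89.4 and 17.2 CPM, while the i.v. TLZ tumors had 34.7, 33.9 and 44.2 CPM and the NanoTLZ tumors 39.5, 43.9 and 70.4 CPM. Saline 3 had the lowest level of all 9 tumors, and saline 1 and saline 2 had the highest, above all 6 treated tumors. With all tumors the log2 fold change was -1.06 ± 0.57 (-2.34 to 0.22) with i.v. TLZ and -0.61 ± 0.57 (-1.88 to 0.66) after NanoTLZ, with edgeR adjusted p of 0.537 and 0.738. Without saline 3 the values were -1.52 and -1.06, with unadjusted p of 9.60e-04 and 0.00874 and adjusted p of 0.341 and 0.639 by edgeR, and no call was reached. Without saline 1 they were -0.50 and -0.03. Exons of *Rcbtb2* and *Lpar6* overlap *Rb1* on the other strand with 6613 counts against 9636, so its level carries that uncertainty too.

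**Figure D3:**
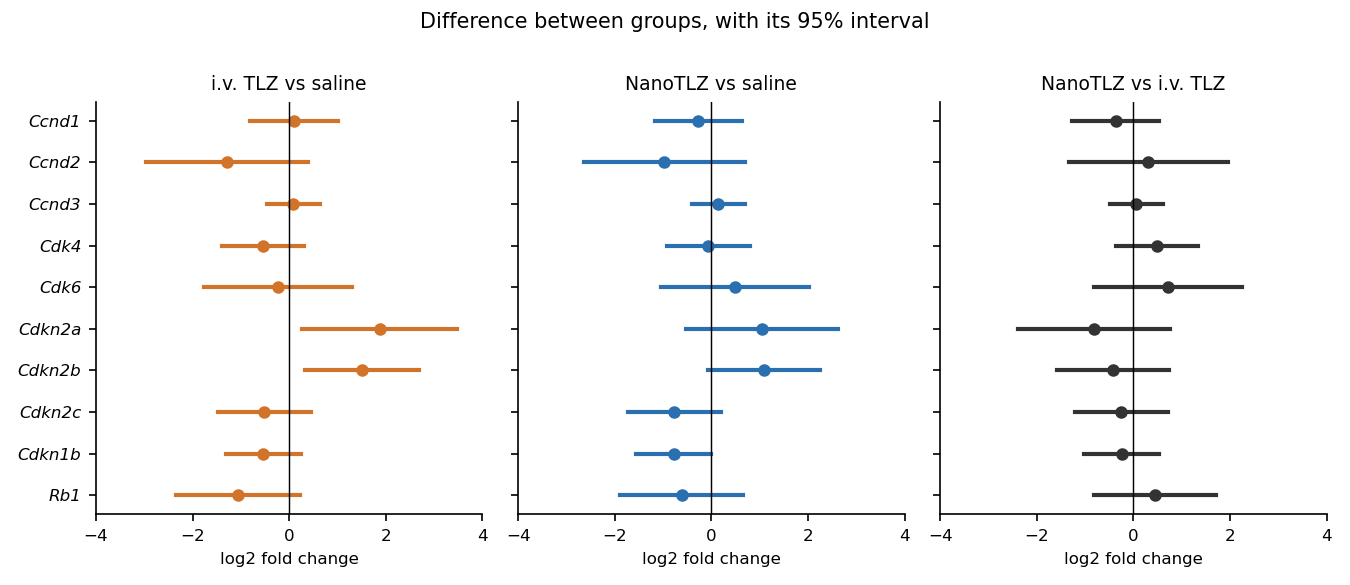
Log2 fold change of each of the 10 genes (points) with its 95% interval from edgeR (lines) for i.v. TLZ against saline, NanoTLZ against saline and NanoTLZ against i.v. TLZ, with n = 3 tumors per group. The intervals clear 0 for *Cdkn2a* and *Cdkn2b* after i.v. TLZ and just clear it for *Cdkn1b* after NanoTLZ, none of them with an adjusted p under 0.05, and all intervals for NanoTLZ against i.v. TLZ include 0.

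Per kilobase of exon and averaged over the 9 tumors, the order of the 10 genes began with *Cdkn2a* at 115 ± 113 (SD) CPM per kilobase, *Ccnd1* at 94.1 ± 31.7, *Cdk4* at 56.5 ± 20.2 and *Cdkn2b* at 54.8 ± 32.0. *Cdkn1b* followed at 20.7 ± 8.31, *Cdkn2c* at 11.2 ± 5.10, *Ccnd3* at 10.7 ± 1.55 and *Rb1* at 9.27 ± 5.76, and *Ccnd2* at 5.45 ± 5.83 and *Cdk6* at 3.50 ± 2.74 came last. The order is firm in places only. *Cdkn1b* lay above *Cdkn2c* in 9 of 9 tumors, and *Ccnd1* above *Cdk4*, *Cdkn2b* above *Cdkn1b* and *Rb1* above *Ccnd2* in 8 of 9. *Cdkn2a* lay above *Ccnd1* in 4 of 9 tumors, *Cdk4* above *Cdkn2b* in 5, *Cdkn2c* above *Ccnd3* in 4, *Ccnd2* above *Cdk6* in 6 and *Ccnd3* above *Rb1* in 7, so these neighbours are not separated beyond their spread. The first place of *Cdkn2a* came from i.v. TLZ 2, and by the median over tumors *Ccnd1* led with 97.0 against 77.4 CPM per kilobase. Exonic lengths were taken over all annotated transcripts, which lowers the level of genes with long rare exons.

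Single tumors marked the extremes. Saline 3 held the highest level of 4 of the 10 genes (*Ccnd2*, *Cdk4*, *Cdkn2c* and *Cdkn1b*) and the lowest of 2 (*Cdkn2b* and *Rb1*), i.v. TLZ 2 the highest of 3 (*Ccnd1*, *Cdkn2a* and *Cdkn2b*), and NanoTLZ 3 the highest of 2 (*Ccnd3* and *Cdk6*). The ratio of the highest to the lowest tumor was 14.1 for *Cdkn2a*, 8.82 for *Ccnd2*, 7.83 for *Cdkn2b*, 7.47 for *Rb1*, 7.14 for *Cdk6*, and 1.58 to 4.52 for the others. None of the 10 genes separated all 6 treated tumors from all 3 saline tumors, whereas 2.81% of all tested genes did so with the treated tumors higher and 2.66% with them lower. Genes were also ranked by how closely their log2 CPM, centred over the 9 tumors, followed the 3 most variable of the 10 genes, using the root mean square difference. Closest to *Cdkn2a* were *Gm20033*, *Il17rd* and *9530053A07Rik*, at 0.394, 0.405 and 0.436 log2 units, all of them highest in i.v. TLZ 2. Counts of *Gm20033* and *9530053A07Rik* were low, at 0.458 to 10.1 and 0.114 to 4.37 CPM, so their likeness is less certain. Closest to *Ccnd2* were *Smco4*, *Rbms3* and *Gm5141*, at 0.30, 0.30 and 0.312, all of them highest in saline 3. *Gm5141* was low too, at 1.37 to 8.35 CPM, with the same limit. Closest to *Cdkn2b* were *Mir22hg*, *Numbl* and *Hist1h2al*, at 0.29, 0.30 and 0.332, all of them highest in i.v. TLZ 1 or i.v. TLZ 2. These describe likeness over 9 tumors and were picked as the closest of 15821 genes.

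Downstream of the retinoblastoma protein, 18 genes that E2F is known to drive (DNA replication, nucleotide synthesis and *Mki67*) were all tested, and edgeR called none in any comparison. All 18 had a log2 fold change below 0 in both treated groups. The median was -1.13 after i.v. TLZ and -0.87 after NanoTLZ, beside -0.03 and -0.09 over all tested genes. At an unadjusted p under 0.05, edgeR gave 13 of 18 lower after i.v. TLZ, 6 of 18 after NanoTLZ and 13 of 18 in the mean of both treated groups, with none higher, where 5.47%, 5.49% and 8.29% of all tested genes passed as lower. The counts moved with the tumors used, over a range of 3 to 14, 0 to 13 and 5 to 15 as each tumor was left out, and at least 15 of the 18 values stayed below 0. Without saline 3 the counts were 3, 0 and 5, with medians of -0.81, -0.57 and -0.68. These genes share their control tumors and move together in dividing cells, so they are not independent of one another. The list, like those below, was chosen with earlier results of these data known, so its counts beside all tested genes are not an independent test.

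*Mki67*, the gene of the proliferation antigen Ki-67, had the lowest fold change of that list, -2.17 ± 0.56 in the mean of both treated groups (edgeR adjusted p of 0.277). Its level was 286, 101 and 940.0 CPM in the saline tumors, 54.3, 97.6 and 160.2 CPM with i.v. TLZ and 107, 75.3 and 95.2 CPM with NanoTLZ. Saline 3 was far above the rest, and 2 treated tumors lay above saline 2. Without saline 3 the log2 fold change was -0.96. *Mcm6*, a subunit of the replicative helicase, came next with -1.20 ± 0.41, and *Pcna*, the polymerase clamp, and *Cdt1*, a licensing factor, were nearest to 0 with -0.25 ± 0.23 and -0.37 ± 0.30. *Cdc6*, which loads the helicase, is named because DESeq2 called it, a choice made after its values were seen, and it had 31.8, 24.1 and 28.4 CPM in the saline tumors, 12.0, 5.63 and 13.6 CPM with i.v. TLZ and 18.1, 15.1 and 19.6 CPM with NanoTLZ. All treated tumors lay below all saline tumors for *Cdc6*, as for 3 of the 18 genes of the list and 2.66% of all tested genes. The log2 fold change of *Cdc6* after i.v. TLZ was -1.43 ± 0.37 with an edgeR adjusted p of 0.417 and a DESeq2 adjusted p of 0.0389 in the fit to all 9 tumors, which called 1.1% of its tested genes. In the DESeq2 fit to the i.v. TLZ and saline tumors alone the call was lost, with an adjusted p of 0.231. DESeq2 on all 9 tumors also called *Mki67*, *E2f8* and *Skp2* in the mean of both treated groups, with adjusted p of 0.0249, 0.0254 and 0.0279, where it called 1.56% of its tested genes. For either drug group alone against saline, DESeq2 called none of them, in that fit or in the fits to the compared groups. Their smallest DESeq2 adjusted p there was 0.0727, for *E2f8* after i.v. TLZ.

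Of the E2F and DP factors themselves, 10 were tested and none was called. At an unadjusted edgeR p under 0.05, 3 of 10 passed as lower after i.v. TLZ, 2 after NanoTLZ and 4 in the mean, with none higher, against 5.47%, 5.49% and 8.29% of all tested genes. Without saline 3 these counts were 1, 2 and 2, and without i.v. TLZ 2 the first was 1. The median was -0.35 in the mean of both treated groups (-0.26 without saline 3, -0.61 without saline 2), beside -0.06 over all tested genes. *E2f8* and *E2f7*, repressor E2Fs that are themselves E2F targets, had the lowest values, -1.16 ± 0.28 and -1.11 ± 0.43 (edgeR adjusted p of 0.277 and 0.338). *E2f8* lay at 19.4, 15.7 and 28.0 CPM in saline, and the 6 treated tumors lay between 7.47 and 10.9 CPM, below all saline tumors. Such a gap was found in 2 of the 10 factors, beside 2.66% of all tested genes. *E2f4* and *E2f1* had the highest, 0.25 ± 0.26 and 0.19 ± 0.25. In the list of E-type cyclins, CDK2 and CDK activation 8 of 9 genes were tested (*Ccna1* had too few counts) and none was called. Here 4 of 8 passed as lower at an unadjusted edgeR p under 0.05 after i.v. TLZ, 3 after NanoTLZ and 4 in the mean, none as higher, beside the same shares of all tested genes as above. Without saline 3 only 0, 0 and 1 passed as lower and 1 as higher in each, and the median in the mean was -0.26 against -0.57 with that tumor. Of the treated tumors, i.v. TLZ 1 or i.v. TLZ 2 left out gave 1 after i.v. TLZ, and NanoTLZ 2 left out gave 0 after NanoTLZ. *Ccne1* and *Ccne2*, the cyclins E that activate CDK2 after the cyclin D step, were lowest with -1.18 ± 0.36 and -1.08 ± 0.38 (edgeR adjusted p of 0.284 and 0.302). *Ccne1* had 12.0, 11.6 and 22.2 CPM in the saline tumors, 5.48, 7.93 and 7.25 CPM with i.v. TLZ and 9.82, 4.48 and 5.48 CPM with NanoTLZ, so that all treated tumors lay below all saline tumors. This held for 2 of the 8 tested genes of the list, beside 2.66% of all tested genes. Without saline 3 *Ccne1* was at -0.79 and *Ccne2* at -0.63. *Cdk7* and *Mnat1*, parts of the CDK-activating kinase, were highest with 0.21 ± 0.31 and 0.19 ± 0.39.

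Among 5 other CDK inhibitors and pocket proteins none was called, 1 passed as higher at an unadjusted p under 0.05 after i.v. TLZ and none in either direction after NanoTLZ, and in the mean 1 passed as higher and 1 as lower, where 4.8% and 8.29% of all tested genes did. The higher one was *Cdkn1a*, which encodes p21, the CDK inhibitor that p53 induces after DNA damage. *Cdkn1a* had 46.1, 50.5 and 46.1 CPM in the saline tumors, 128, 78.3 and 85.3 CPM with i.v. TLZ and 74.9, 76.1 and 57.2 CPM with NanoTLZ, and all 6 treated tumors lay above all 3 saline tumors. *Cdkn1a* was the only gene of the 5 with such a gap, beside 2.81% of all tested genes. The fitted log2 fold change was 1.03 ± 0.27 (0.44 to 1.63) with i.v. TLZ and 0.55 ± 0.27 (-0.05 to 1.14) after NanoTLZ, with edgeR p of 0.00318 and 0.0679 and adjusted p of 0.417 and 0.568. Without saline 3 the mean of both groups was 0.79, against 0.79 with it. The lower one was *Rbl1*, the p107 pocket protein, with -0.82 ± 0.32, at 47.1, 19.8 and 63.1 CPM in the saline tumors, and saline 2 lay below every treated tumor. Without saline 3 *Rbl1* was at -0.42 and no longer passed, nor did it without saline 1, i.v. TLZ 2, NanoTLZ 2 or NanoTLZ 3. *Cdkn2d* (p19Ink4d) had 0.12 ± 0.36, and *Cdkn1c* (p57) had -0.72 ± 1.17, which turned to 2.62 without saline 3.

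The 11 genes that destroy D-type cyclins, cyclin E or p27 were tested, and none was called. In the mean of both treated groups 2 passed as lower and none as higher at an unadjusted edgeR p under 0.05, 2 of 11 beside 8.29% of all tested genes. After i.v. TLZ 2 passed as lower and 1 as higher, beside 5.47% and 4.91%, and after NanoTLZ 1 passed as lower, beside 5.49%. Between NanoTLZ and i.v. TLZ 1 passed in each direction, beside 1.68% of all tested genes in either. Without saline 1, or without saline 3, 3 passed as lower and 1 as higher in the mean. The median was -0.38, and -0.099 without saline 1, -0.25 without i.v. TLZ 3 and -0.25 without saline 3. The lowest was *Skp2*, the ubiquitin ligase subunit that marks p27 for destruction and is an E2F target, with -1.72 ± 0.42 and an edgeR adjusted p of 0.272. *Skp2* had 47.2, 23.0 and 106 CPM in saline and 10.4 to 20.8 CPM in the 6 treated tumors, all below saline, and without saline 3 its log2 fold change was -0.95. *Skp2* was the only gene of the 11 with such a gap, beside 2.66% of all tested genes. *Gsk3b*, a kinase that marks cyclin D1 for export from the nucleus, was next with -0.70 ± 0.34 (-0.10 without saline 1), and *Cryab* and *Fbxo31*, both tied to cyclin D1 ligases, were highest with 0.69 ± 0.33 and 0.53 ± 0.31. Of 12 regulators of *Cdkn2a* and of the ARF-p53 arm none was called, and 1 passed as higher (*Ets1*) and 1 as lower (*Ezh2*) in the mean, near the 4.8% and 8.29% of all tested genes. *Ets1* no longer passed when any of saline 2, saline 3, i.v. TLZ 1, i.v. TLZ 3, NanoTLZ 1 and NanoTLZ 3 was left out. *Ezh2*, the Polycomb methyltransferase that silences the *Cdkn2a* locus, had 37.0, 38.0 and 109.8 CPM in saline and 21.4 to 34.7 CPM in the treated tumors, all below saline, with a log2 fold change of -1.06 ± 0.36 (edgeR adjusted p of 0.294). *Ezh2* was the only gene of the 12 with such a gap, beside 2.66% of all tested genes. Saline 3 stood far above the other saline tumors, and without it *Ezh2* was at -0.33 and no longer passed. *Id1*, which holds back ETS factors at the p16Ink4a promoter, had 1.13 ± 0.59, *Ets1* 0.82 ± 0.35 and *Ets2* -0.75 ± 0.42, and the median of the list was -0.097, which turned to 0.35 without saline 3.

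**Figure D4:**
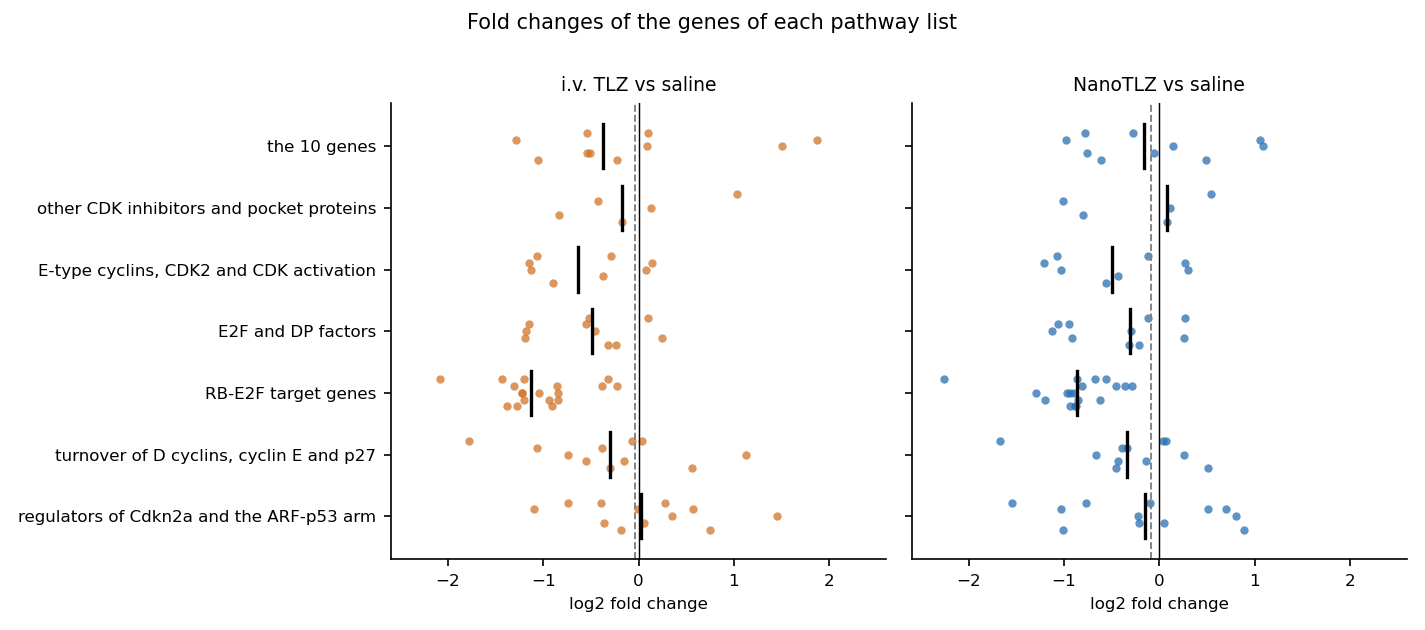
Log2 fold changes of the tested genes of each list (points) after i.v. TLZ and after NanoTLZ against the same 3 saline tumors, with the list's median as a black bar and the median of all tested genes as a dashed line. All 18 RB-E2F target genes lie left of 0 in both panels, with medians of -1.13 and -0.87, while the 10 genes lie on both sides of 0.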

How the data were processed

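RNA of 9 tumors was isolated with the RNeasy kit and sequenced by Novogene for the authors, who deposited raw read counts per gene without normalization. The labels name mm10, TopHat2 and DESeq2 with no versions or roles, and the counting program, its annotation and its strand setting were not given in the sources used here. Symbols and positions came from GENCODE M21 (34490 of 35275 identifiers matched), and promoters from RefSeq (GRCm38.p6). Genes were filtered with filterByExpr (minimum count 10, minimum total 15), scaled by TMM, and tested with glmQLFit and glmQLFTest in edgeR 4.0.16 under R 4.3.3, with 1 coefficient per group in all 9 tumors and Benjamini-Hochberg adjustment over the 15821 tested genes. Standard errors and 95% intervals came from the same fit. Log2 CPM used a prior count of 2. Alternatives were DESeq2 1.42.0, RLE and upper quartile normalization, other filters, a robust dispersion, fits to the compared groups alone, and each tumor left out in turn. The scripts were tested on simulated counts. Tumors are numbered in the order of their records, and these numbers pair nothing. Of the other pathway genes, the text names the 2 highest and 2 lowest of each list by the mean of both treated groups. The 10 genes, the pathway lists and the marker lists were chosen with earlier results of these data known. Counting error is small for the 10 genes at this depth, so the number of tumors limits their precision. Figures were drawn with matplotlib 3.10.9.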

Additional observations from a re-analysis of the deposited data

How the results depend on the processing

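None of the 10 genes was called under any of the 18 alternatives, DESeq2 included, and the smallest adjusted p was 0.122. Of 700 fold changes of the 10 genes under alternatives, 674 had the sign reported and 26 the other sign, 25 of these when a tumor was left out. The exception was *Cdk4* after NanoTLZ, 0.022 under upper quartile normalization. As each tumor was left out, the log2 fold change after i.v. TLZ ranged over -0.29 to 0.38 for *Ccnd1*, -1.72 to 0.52 for *Ccnd2* and -0.56 to 0.16 for *Cdk6*. After NanoTLZ it ranged over -1.41 to 0.85 for *Ccnd2*, -0.053 to 0.30 for *Ccnd3*, -0.37 to 0.28 for *Cdk4* and -0.90 to 0.95 for *Cdk6*. For the mean of both treated groups it ranged over -0.31 to 0.16 for *Ccnd1*, -1.57 to 0.69 for *Ccnd2*, -0.50 to 0.027 for *Cdk4* and -0.56 to 0.53 for *Cdk6*, and for NanoTLZ against i.v. TLZ over -0.62 to 0.016 for *Ccnd1*, -0.0008 to 0.55 for *Ccnd2*, -0.15 to 0.20 for *Ccnd3*, -0.69 to 1.16 for *Cdk6*, -1.28 to 0.35 for *Cdkn2a*, -0.44 to 0.035 for *Cdkn2c* and -0.43 to 0.10 for *Cdkn1b*. Of 383 values of the named pathway genes 5 changed sign, with ranges of -0.078 to 0.34 for *Cdkn2d*, -1.39 to 2.62 for *Cdkn1c*, -0.013 to 0.70 for *Mnat1* and -0.61 to 0.025 for *Cdt1*. The cause was not tested. DESeq2 on all 9 tumors called 194, 109 and 276 of all genes after i.v. TLZ, after NanoTLZ and in the mean, where edgeR called 0, 1 and 3 (1643, 1423 and 2072 at an unadjusted p under 0.05), and edgeR without a filter on low counts called 5, 6 and 33. Without saline 1 edgeR called 18 genes in the mean. Between NanoTLZ and i.v. TLZ edgeR called 0 (266 at an unadjusted p under 0.05) and DESeq2 3 of all genes. DESeq2 on the groups compared alone called 92 after i.v. TLZ, 171 after NanoTLZ and 21 between them, so which drug group had more calls turned with the tumors fitted. Shares within the families depended on the scaling by exonic length. Without it the mean *Ccnd1* share in saline was 73.7% in place of 84.2% (SD 4.59). The mean *Cdk4* share with i.v. TLZ was 78.5% in place of 94.0% (SD 0.34). The mean *Cdkn2b* share in saline moved less, to 27.9% from 29.3% (SD 11.6). Without the scaling *Ccnd1* and *Cdk4* still had the largest share in every tumor. No paired analysis was possible because the labels give no replicate numbers or pairing across groups.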
